A study of Mus musculus with 4 samples.

Results

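Alternative 5′ and 3′ splice sites are places where the ends of an intron can be cut at more than 1 position, so that an exon is made longer or shorter. They were read here from the deposited transcript models of the mouse retina. A pair was any 2 introns of the same gene and strand that shared one end and differed by 3 to 300 nt at the other. The rule found 5939 pairs, 3025 with alternative 5′ sites (donors) and 2914 with alternative 3′ sites (acceptors), among 123654 distinct introns. They lay in 3517 of the 12657 genes with a spliced model (27.8%). The retinas came from wild-type male mice of the inbred strain C57BL6/J and were dissociated into 4 single-cell libraries, sequenced as long nanopore reads. Of these, 2 had no enrichment, with an age of postnatal day 40 given for 1 of them. The third, from postnatal week 8, had CD73 enrichment, for which the labels' protocol describes removal of cells carrying this photoreceptor surface protein. The fourth, from postnatal month 4, had CD90.2 enrichment, a positive selection for a surface protein of neurons. The deposited table gives each isoform a count in 6 columns with no library named. They stand for rods, cones, bipolar cells (BC), amacrine cells (AC), retinal ganglion cells (RGC) and Müller glia (MG). Each class is therefore 1 pooled sample without a replicate, no test between classes was made, and classes can differ in the libraries, ages and enrichments behind them. A class can also hold several subtypes, and a share of counts does not separate a change in subtypes from a change within cells.

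Splicing removes introns at a donor, which nearly always begins with GT, and an acceptor, which ends in AG. The spliceosome recognises the donor first through U1 RNA and the acceptor through the U2AF proteins, and where 2 candidate sites lie close together both can be used. In coding sequence a distance that is a multiple of 3 adds or removes whole codons, whereas any other distance shifts the reading frame. Neurons and photoreceptors are known for splicing programs of their own.

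The sequences below show what such a choice changes. Each is part of 1 exon from GENCODE M21 transcripts (build GRCm38), 5′ to 3′ on the transcribed strand. Capitals mark the segment that is exon with one site and intron with the other, and lower case marks the neighbouring bases that stay in the exon. The first group are donors, with the segment at the end of the exon, and the second group are acceptors, with the segment at its start. They were chosen among the coding pairs described below because their distances run from 3 to 75 nt and because the use of some differed between classes and that of others hardly did. Vdac3 lies at chr8:22587550-22587572 (minus strand), Mtpn at chr6:35539539-35539579 (minus), Ing4 at chr6:125047297-125047325 (plus) and Cox6b2 at chr7:4752061-4752123 (minus).
Vdac3 donors, 3 nt: ccaagtcttgtagtggagtgGTG
Ing4 donors, 9 nt: tgacagctcttctagcaaagGCAAAAAGA
Mtpn donors, 21 nt: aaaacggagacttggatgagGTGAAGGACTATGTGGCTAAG
Cox6b2 donors, 43 nt: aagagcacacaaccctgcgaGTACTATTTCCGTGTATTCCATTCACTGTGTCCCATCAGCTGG

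The acceptor segments lie at chr8:95299507-95299529 (minus) in Cngb1, chr3:28806500-28806522 (plus) in Rpl22l1, chr19:5026028-5026056 (plus) in Slc29a2 and chr9:58650497-58650518 (plus) in Nptn. Those of Serf2 at chr2:121450698-121450740 (plus), Hnrnpc at chr14:52075393-52075436 (minus) and Cyc1 at chr15:76344280-76344325 (plus) follow. The last 3 are Ogt at chrX:101642976-101643025 (plus), Elob at chr17:23828929-23828978 (minus) and Cpsf4 at chr5:145178758-145178852 (plus).
Cngb1 acceptors, 3 nt: CAGggtggagcacagatcccaga
Rpl22l1 acceptors, 3 nt: CAGaaagacaagaagcctaagaa
Slc29a2 acceptors, 9 nt: TACTTCCAGgggcggttagcagggaccaa
Nptn acceptors, 12 nt: ATGATGAACCAGctgggccaat
Serf2 acceptors, 23 nt: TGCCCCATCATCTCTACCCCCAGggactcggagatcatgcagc
Hnrnpc acceptors, 24 nt: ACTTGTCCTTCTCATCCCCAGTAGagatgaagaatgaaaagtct
Cyc1 acceptors, 26 nt: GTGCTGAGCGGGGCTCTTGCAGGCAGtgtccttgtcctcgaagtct
Ogt acceptors, 30 nt: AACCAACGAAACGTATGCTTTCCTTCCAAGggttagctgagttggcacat
Elob acceptors, 30 nt: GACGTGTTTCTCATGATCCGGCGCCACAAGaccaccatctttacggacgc
Cpsf4 acceptors, 75 nt: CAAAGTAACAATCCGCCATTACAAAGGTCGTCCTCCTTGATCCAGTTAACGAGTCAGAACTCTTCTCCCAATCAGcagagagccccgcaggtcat

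In these sequences the donor segments begin with GT, or GC in Ing4, because the first bases of the segment are the start of the intron when the upstream donor is used. The acceptor segments end in AG because their last bases are the end of the intron when the downstream acceptor is used. Of 1820 donor segments that could be read, 1754 (96.4%) began with GT and 65 (3.57%) with GC. Of 2067 acceptor segments, 2065 (99.9%) ended in AG. Letters were read on the transcribed strand at that position only.

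Of the 5939 pairs, 4237 (71.3%) extended 1 exon, meaning that in a model the longer exon held both sites. These were 2047 of the 3025 5′ pairs (67.7%) and 2190 of the 2914 3′ pairs (75.2%). In the other 1702 pairs the nearby sites belonged to separate exons that did not overlap, and for 305 of the 978 such 5′ pairs the exon was an end of the transcript. GENCODE M21 listed both introns, at identical coordinates, for 3750 of the 4237 extending pairs (88.5%) and for 906 of the 1702 others (53.2%). Most pairs stood alone: the 5939 formed 4783 groups with a shared intron end, and 4168 groups held a single pair. Models were deposited only for isoforms with at least 1 count in rods, 36426 of 44325, so a site used only outside rods is not among the pairs. At the edges of the rule, 13 5′ pairs and 17 3′ pairs differed by 2 nt and were left out, and 21 and 549 differed by 3 nt.

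Depth was uneven. The 149645836 counts were divided into 55437340 in rods, 48248340 in AC, 29010038 in BC, 7307134 in cones, 6133094 in MG and 3509890 in RGC. A pair had 50 or more counts in at least 1 class in 5208 cases, in at least 2 classes in 4287 and in all 6 in 1352, and 731 pairs reached 50 in no class. Of pairs at the edge of this minimum, 9 had exactly 49 counts in their highest class and 16 had exactly 50. The 6 rod markers, 6 cone markers, 6 bipolar markers, 6 amacrine markers and 6 ganglion cell markers checked were each highest in their own column, as were 5 of the 6 for MG. Levels are given as CPM, that is after scaling each column to 1000000 counts. The summed levels of the rod markers were 21710 in rods, 1278 in MG, 899 in cones, 377 in BC, 140 in AC and 0 in RGC. The amacrine markers reached 716 CPM in AC, below the 1164 CPM of MG markers there and near the 693 CPM of ganglion cell markers. The part of RGC counts in AC values was not tested. All 5 pigment epithelium markers summed to 8826 CPM and all 6 microglial markers to 1609 CPM in the MG column, and their part in MG values was not tested.

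Acceptor pairs had a single peak at 3 nt, and donor pairs were also frequent at short distances but spread more evenly over them. Of coding pairs, 933 of 1477 3′ pairs and 370 of 836 5′ pairs lay 3 to 30 nt apart. Among extending 3′ pairs, 549 of 2190 were 3 nt apart (25.1%, exact 95% interval 23.3 to 26.9%), 145 were 4 nt apart (6.62%), 79 were 5 nt apart and 47 were 6 nt apart. Among extending 5′ pairs, 4 nt was the most frequent distance with 95 of 2047 (4.64%, 3.77 to 5.64%). Distances of 12, 9 and 11 nt followed with 48, 40 and 38 pairs, and 3 nt had 21. The 3-nt acceptors made up 408 of 1477 3′ pairs in coding sequence (27.6%) and 92 of 368 in 5′ untranslated regions (UTRs). Intervals here and below are exact Clopper-Pearson 95% intervals for counting error, and pairs of 1 gene share their reads.

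**Figure D1:**
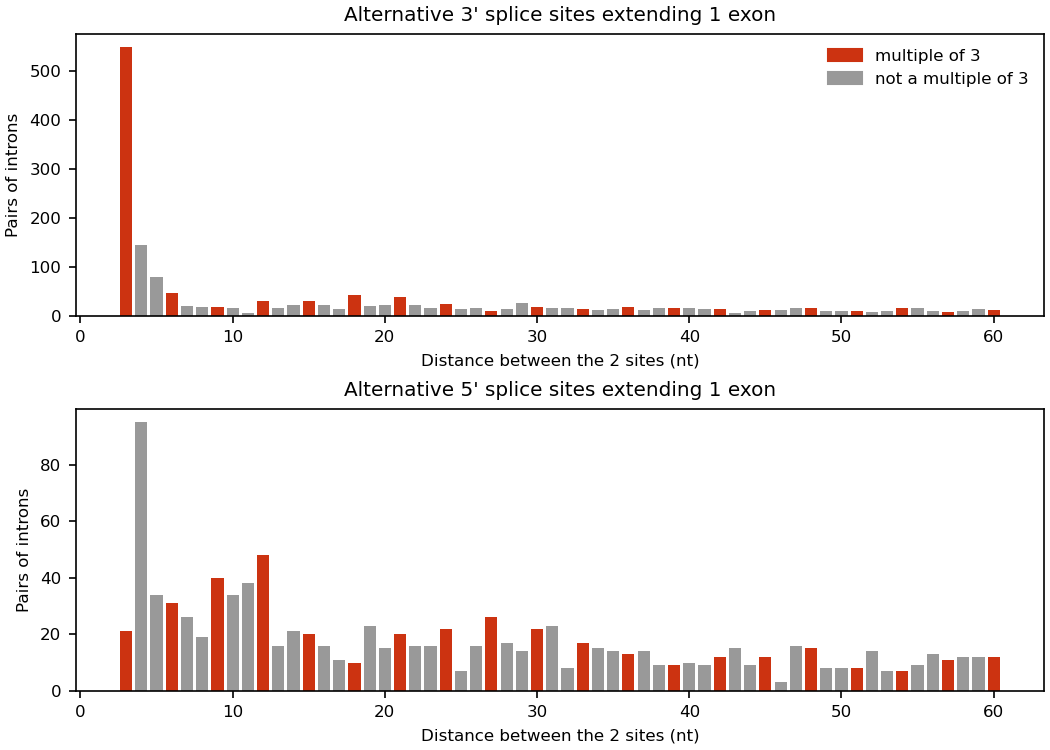
Number of intron pairs (y axis) by the distance between the 2 sites in nt (x axis, 3 to 60 nt), for 3′ sites above and 5′ sites below, with multiples of 3 in red and other distances in grey. The 3′ sites have 1 tall bar of 549 pairs at 3 nt, and the 5′ sites have their highest bar, 95 pairs, at 4 nt.

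More of the 3′ than of the 5′ pairs had a distance that was a multiple of 3. Here and below, in frame stands for such a distance at any position, coding or not. The distance was a multiple of 3 in 1326 of 2914 3′ pairs (45.5%, 43.7 to 47.3%) and in 1020 of 3025 5′ pairs (33.7%, 32.0 to 35.4%). In extending pairs the shares were 50.3% for 3′ and 34.6% for 5′ sites, and in pairs of separate exons they were 31.1% and 31.8%. Coding 3′ pairs were at 53.8% (794 of 1477) and coding 5′ pairs at 40.2% (336 of 836). In 5′ UTRs, where no frame is read, the shares were 47.0% (173 of 368) for 3′ and 32.2% (244 of 758) for 5′ pairs. Without the 3-nt pairs, 36.1% of coding 3′ pairs and 29.3% of those in 5′ UTRs were multiples of 3, and for 5′ pairs 39.0% and 32.0%. The 3′ shares were then below the 5′ shares at both positions, with intervals that overlapped.

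The share in frame was largest at short distances. For coding pairs of 3 to 30 nt it was 64.4% at 3′ sites and 47.8% at 5′ sites. It was 36.0% and 35.7% at 31 to 100 nt, and 33.9% (25.7 to 42.8%) and 32.0% (25.7 to 38.9%) at 101 to 300 nt. Frame also went with the annotation, which is itself the source of the coding position, read from transcripts with the longer exon. Both introns occurred in protein-coding M21 transcripts for 959 of 1130 coding pairs that kept the frame (84.9%) and for 344 of 1183 that did not (29.1%). Where only 1 of the introns did, it was the more used one in 679 of 747 pairs out of frame (90.9%) and in 119 of 138 pairs in frame (86.2%).

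The use of each pair was measured as the longer-exon share, the counts of isoforms with the shorter intron as a percentage of the counts with either intron. A pair can cover only part of a gene's counts, so this share need not hold for all of the gene's transcripts. The less used intron, pooled over classes, had a median share of 14.6% over 5208 pairs. By site and frame the median was 19.0% (17.03 to 20.6%) for 3′ pairs in frame and 11.4% (10.5 to 12.4%) for 3′ pairs out of frame. For 5′ pairs it was 16.5% (15.0 to 18.5%) in frame and 14.2% (13.2 to 15.4%) out of frame. In coding 3′ pairs the medians were 20.97% against 10.5%, and in those of 5′ UTRs 25.1% against 19.3% with intervals that overlapped. Acceptors 3 nt apart made up 408 of the 794 coding 3′ pairs in frame. Medians without them were not computed, so frame and short distance are not separated here. A less used intron under 2% was listed in only 21 of the 5208 pairs, against 368 between 2 and 3%, so weakly used sites are hardly represented among the deposited isoforms.

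**Figure D2:**
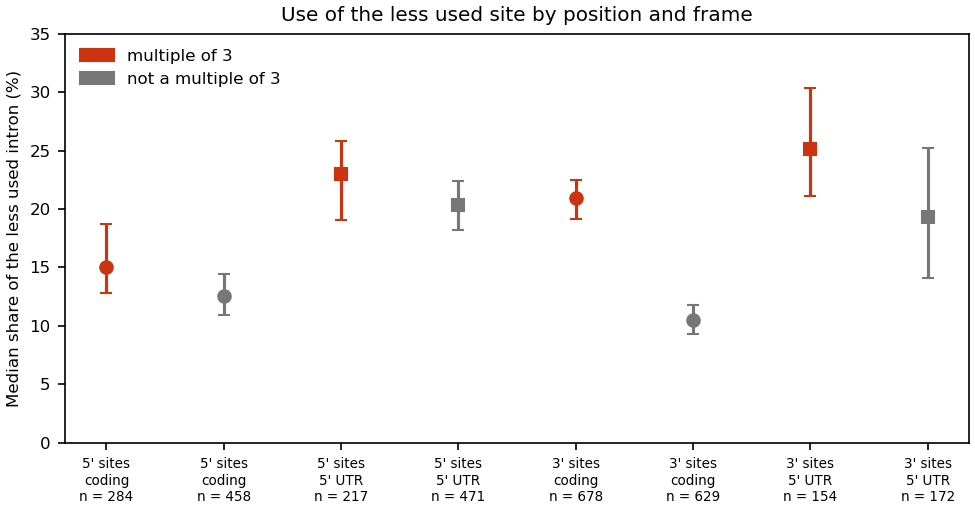
Median share of the less used intron in percent (y axis) for extending pairs by site, coding or 5′ UTR position, and frame (red, multiple of 3; grey, other), with 95% intervals of the median over pairs and the number of pairs under each point. The widest gap between frames is in coding 3′ pairs, at 20.97% and 10.5%, with acceptors 3 nt apart included.

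Which of 2 neighbouring acceptors was used went with the bases in front of the downstream one. For acceptors 3 nt apart, the longer exon had a median share of 94.3% in the 20 pairs whose segment was GAG and 78.2% in the 77 pairs with AAG. It was 63.0% (95% interval over pairs 44.6 to 81.3%) in the 46 pairs with TAG and 55.6% (48.6 to 60.2%) in the pairs with CAG, against 61.2% over all 444 pairs. Pooled over counts the shares were 94.8% for GAG, 84.4% for TAG, 58.3% for AAG and 56.6% for CAG. By that measure TAG stood above AAG, and AAG lay near CAG. The downstream acceptor was thus used least where it ended in GAG. The spread within a motif was wide, with quartiles of 32.7 and 76.3% for CAG. In each of the 6 classes the median for GAG lay between 92.2% in AC and 96.3% in RGC, that for AAG between 75.8% in AC and 84.1% in MG, and that for CAG between 52.0% in AC and 60.6% in RGC. The place of TAG varied: its median was 43.4% over 15 pairs in MG, below CAG there (55.8%), and 86.4% over 11 pairs in RGC, above AAG there (79.7%). For acceptors 4 nt apart the upstream site had a median of 89.3% over 128 pairs.

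Among donors, pairs with GTAAG or GTGAG differed from the others. Of the 5′ pairs 5 nt or more apart, 559 had a segment that began with GTAAG or GTGAG, letters that pair well with U1 RNA. The longer exon, made with the downstream donor, had a median share of 30.4% (26.0 to 34.9%) in these, 58.5% (52.5 to 62.1%) in the 938 that began with other GT sequences and 58.7% (34.2 to 67.4%) in the 52 that began with GC. Pooled over counts the shares lay closer for the first 2 of these sets, at 43.1% and 48.4%, with 64.4% for GC. Of 4-nt donors, the 24 pairs with GTAG had a median of 29.3% (14.4 to 72.5%) and the 10 with GTGA 10.2% (3.07 to 30.9%). The 10 with GTGG had 53.9% (13.4 to 93.9%) and the 8 with GTAA 14.6% (2.25 to 90.8%), so the intervals overlapped. Across extending pairs the longer exon was the more used form in 1118 of 1916 3′ pairs (58.4%) and 829 of 1820 5′ pairs (45.5%).

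The next question was whether cell classes use these sites differently. A pair was called different when the longer-exon share differed by 25 percentage points or more between any 2 classes with 50 or more counts each. This rule of size was met by 929 of 4287 pairs (21.7%), and by 187 at 50 points. The median range over classes was 12.8 points. By set, 170 of 710 5′ pairs in frame (23.9%), 337 of 1494 5′ pairs out of frame (22.6%), 178 of 925 3′ pairs in frame (19.2%) and 244 of 1158 3′ pairs out of frame (21.1%) were called. Over both frames, 5′ pairs were called in 23.0% and 3′ pairs in 20.3%, and extending pairs in 20.1%. Coding pairs were called in 19.0% (18.1% in frame, 19.8% out of frame), those of 5′ UTRs in 20.7%, acceptors 3 nt apart in 17.9% (65 of 364), donors 4 nt apart in 9.46% (7 of 74) and pairs of separate exons in 25.8%. Cassette exons, read in the same models as introns that skip 1 exon, were called in 1268 of 4628 (27.4%), with a median range of 13.6 points and no test made. By depth, the share called was 24.2% where the class with the second most counts had 50 to 99, 22.1% at 100 to 199, 21.5% at 200 to 499, 24.7% at 500 to 1999 and 15.8% at 2000 or more. The median range was 13.5 to 14.2 points in the first 4 of these bins and 9.63 points in the last. With 200 counts in each class compared 341 of 2827 pairs were called.

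Cones and rods were the classes most alike and ganglion cells stood farthest off. Of 2391 pairs measured in both, 29 differed between cones and rods (1.21%). Rods and RGC differed in 214 of 1662 (12.9%), cones and RGC in 179 of 1463 (12.2%), MG and RGC in 167 of 1428 (11.7%) and BC and RGC in 185 of 1667 (11.1%). AC and rods differed in 403 of 3767 (10.7%) and AC and RGC in 135 of 1700 (7.94%). AC also differed from cones and from MG in 8.84% each and from BC in 7.64%. The other shares were 5.06% for BC and rods, 3.84% for MG and rods, 3.41% for BC and MG, 3.36% for cones and MG and 3.15% for BC and cones. On the 1352 pairs measured in all 6 classes the cone and rod value was 0.444% (6 pairs) and the cone and RGC value 12.1% (163 pairs). Of these, 293 were called, and the class farthest from the median of the others was RGC in 160 (54.6%), AC in 51, MG in 27, rods in 25, cones in 18 and BC in 12. RGC have the fewest counts, and with 200 counts in every class they were farthest in 37 of 89 pairs (41.6%). With 200 counts in both classes compared, rods and RGC differed in 8.76%, MG and RGC in 7.61% and AC and rods in 7.60%. Cones and RGC then differed in 7.21%, BC and RGC in 7.01%, AC and RGC in 3.98% and cones and rods in 0.346%.

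**Figure D3:**
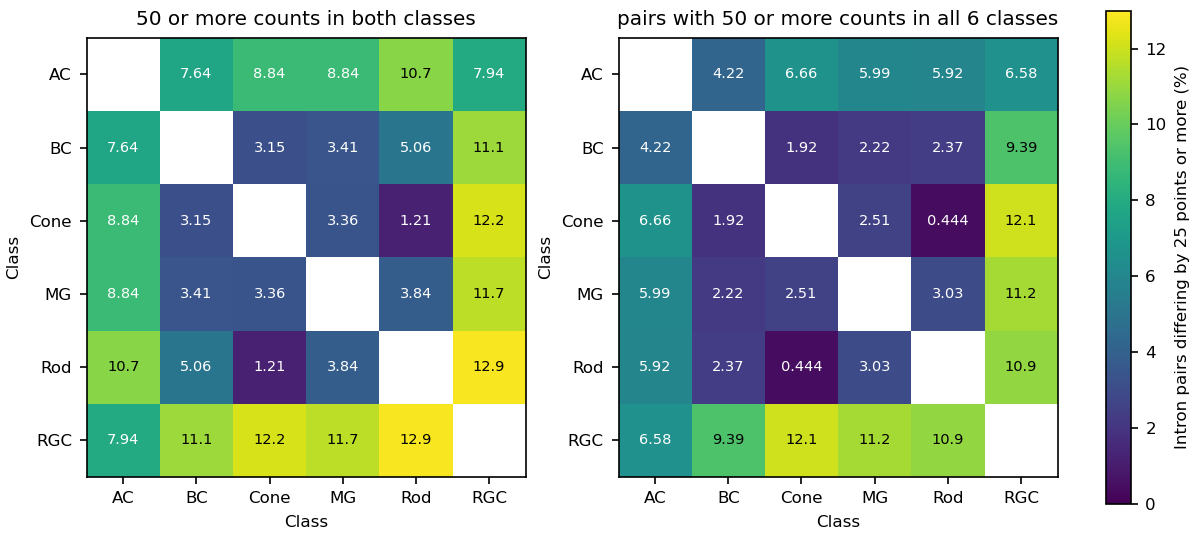
Percentage of intron pairs differing by 25 points or more (colour and printed value) for each 2 classes on the axes, over pairs with 50 counts in both (left) and over the 1352 pairs with 50 counts in all 6 (right). Cone against rod is the lowest cell in both panels (1.21 and 0.444%), and the highest values lie in the RGC row.

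Among coding donors in frame, the largest differences set 1 or 2 classes apart. Vdac3 (ENSMUSG00000008892.12), a channel of the mitochondrial outer membrane, has donors 3 nt apart. The longer exon had 24244 of 25344 counts in AC (95.7%), 13861 of 14559 in BC (95.2%), 3364 of 3481 in cones (96.6%), 15387 of 16314 in rods (94.3%) and 2243 of 2298 in RGC (97.6%). In MG it had 393 of 2308 (17.03%, 15.5 to 18.6%), so MG alone mostly used the upstream donor and lacked the GTG. The gene's total level in MG, 376 CPM, lay within the 294 to 655 CPM of the other columns, and the column also held the pigment epithelium and microglial markers given above.

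Mtpn, encoding the ankyrin repeat protein myotrophin, was set apart in bipolar cells. Its 21-nt segment was kept in 1286 of 1565 BC counts (82.2%), against 114 of 249 in MG (45.8%), 100 of 240 in cones (41.7%), 47 of 208 in AC (22.6%) and 105 of 527 in rods (19.9%), with 1 count in RGC. Aimp2, a scaffold of the multi-tRNA synthetase complex, has donors 120 nt apart (chr5:143909581-143909700, minus). Its longer exon had 2091 of 2277 counts in BC (91.8%), 415 of 459 in cones (90.4%), 3897 of 4536 in rods (85.9%) and 274 of 321 in MG (85.4%), but 1358 of 2878 in AC (47.2%) and 110 of 300 in RGC (36.7%). AC and RGC were both low here.

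Pcbp3, a poly(C)-binding RNA-binding protein, showed the largest difference among 5′ pairs in frame, and its isoforms also differed in first exon. The 69-nt segment (chr10:76785071-76785139, minus), which M21 places in non-coding transcripts of the gene, was kept in 10879 of 11612 AC counts (93.7%) and 4019 of 4544 BC counts (88.4%). It was kept in 62 of 331 counts in cones (18.7%), 17 of 89 in MG (19.1%), 223 of 3471 in rods (6.42%) and 13 of 264 in RGC (4.92%). All counts with the segment came from isoforms with the first exon chr10:76822730-76822797. Within that start the segment was kept in 94.9% of 11464 AC counts, 89.3% of 4501 BC counts, 94.1% of 237 rod counts (90.3 to 96.7%), 62 of 64 cone counts and 13 of 13 RGC counts. Isoforms from the first exon chr10:76816610-76816706 had it in 0 of 3037 counts and those from chr10:76961748-76961887 in 0 of 976. The first of these starts held 79.1% of the pair's rod counts, the second 94.7% of its RGC counts, and the start that goes with the segment 98.7% of its AC counts. Donor and first exon thus moved together across classes. Among isoforms alike in all other introns the AC minus RGC difference went from 88.8 to −10.4 points. This breakdown was chosen after the values were seen.

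Donor pairs out of frame differed by as much. Pigx, which acts in the synthesis of glycosylphosphatidylinositol anchors, has coding donors 179 nt apart (chr16:32099476-32099654, minus). The longer exon had 168 of 182 counts in cones (92.3%), 1896 of 2138 in rods (88.7%), 271 of 309 in MG (87.7%) and 662 of 785 in BC (84.3%). AC had 1051 of 1901 (55.3%) and RGC 17 of 217 (7.83%, 4.63 to 12.2%). Timm10b, a small chaperone of mitochondrial protein import, went the other way. Its 68-nt segment (chr7:105641161-105641228, plus) was kept in 378 of 478 RGC counts (79.1%), 1971 of 4574 in AC (43.1%), 121 of 378 in cones (32.0%), 653 of 2712 in BC (24.1%), 434 of 2381 in rods (18.2%) and 5 of 64 in MG (7.81%). RGC were the extreme class in both genes, low in the first and high in the second.

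Echdc2, an enoyl-CoA hydratase family gene, has donors 278 nt apart (chr4:108169949-108170226, plus). The longer exon had 592 of 618 counts in BC (95.8%), 86 of 127 in AC (67.7%), 27 of 89 in rods (30.3%) and 51 of 283 in MG (18.02%), with 22 of 25 in cones. Meg3, an imprinted long non-coding RNA, has donors 44 nt apart (chr12:109543806-109543849, plus). Its longer exon had 1877 of 2420 counts in BC (77.6%), 87 of 125 in MG (69.6%), 35 of 52 in cones (67.3%), 327 of 673 in rods (48.6%), 1577 of 7481 in AC (21.1%) and 140 of 1158 in RGC (12.1%). AC and RGC, which held most of its counts, were lowest.

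Acceptors in frame included Ogt, the enzyme that adds N-acetylglucosamine to serine and threonine of intracellular proteins. Its 30-nt segment was kept in 2442 of 3333 counts in cones (73.3%), 971 of 1472 in MG (66.0%), 7197 of 11575 in BC (62.2%) and 7341 of 11868 in rods (61.9%). AC had 4168 of 23928 (17.4%, 16.9 to 17.9%) and RGC 126 of 767 (16.4%, 13.9 to 19.2%). The classes thus fell into 2 levels, AC and RGC below the other 4, and within each level BC and rods, or AC and RGC, had intervals that overlapped. The gene's level did not follow this order, with 496 CPM in AC, 456 in cones, 399 in BC, 240 in MG, 219 in RGC and 214 in rods.

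Cpsf4, a subunit of the complex that cleaves and polyadenylates pre-mRNA, kept its 75-nt segment in 379 of 412 AC counts (92.0%), 40 of 118 in BC (33.9%) and 89 of 415 in rods (21.4%). All 17 RGC counts had it, below the minimum. Tradd, an adaptor of the tumour necrosis factor receptor, has acceptors 177 nt apart (chr8:105259988-105260164, minus) in non-coding transcripts of the gene. The longer exon had 70 of 71 counts in RGC (98.6%), 548 of 640 in AC (85.6%), 204 of 295 in BC (69.2%), 37 of 99 in rods (37.4%) and 12 of 256 in MG (4.69%). AC and RGC were high in both genes. Cuta has acceptors 276 nt apart (chr17:26939093-26939368, minus), also in non-coding transcripts. Its shares ran from 97.4% in BC to 41.9% in RGC (894 of 2132), but only 14.2% of its longer-exon counts held both sites in 1 exon. With those alone the BC minus RGC difference was 64.6 in place of 55.5 points.

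Acceptors out of frame differed by up to 74.9 points. Tecr, the reductase of the last step of very long chain fatty acid elongation, has acceptors 32 nt apart (chr8:83571904-83571935, minus), an extension that is not in GENCODE M21. The longer exon had 1133 of 1239 counts in MG (91.4%), 1199 of 1959 in cones (61.2%), 3902 of 6887 in rods (56.7%), 3309 of 6982 in BC (47.4%), 391 of 1100 in RGC (35.5%) and 2437 of 14713 in AC (16.6%). The pair covered 23 to 37% of the gene's counts in a class, and its isoforms also differed elsewhere. Cyc1, cytochrome c1 of respiratory complex III, kept its 26-nt segment in 253 of 336 RGC counts (75.3%), 1137 of 2613 in AC (43.5%), 747 of 1752 in rods (42.6%), 99 of 268 in cones (36.9%), 35 of 111 in MG (31.5%) and 271 of 995 in BC (27.2%). RGC stood apart from the other 5 classes there. The pair covered 6.60% of the gene's counts in MG to 19.6% in RGC, so these shares describe a small part of Cyc1 counts.

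Alkbh6, an AlkB family dioxygenase, has coding acceptors 85 nt apart (chr7:30312506-30312590, plus). Its longer exon had 196 of 233 RGC counts (84.1%), 51 of 88 in MG (58.0%), 546 of 980 in BC (55.7%), 1001 of 1920 in AC (52.1%), 71 of 170 in cones (41.8%) and 371 of 1162 in rods (31.9%). The isoforms of this pair also differed elsewhere. All 2236 longer-exon counts had the shorter exon at donors 100 nt apart in the same gene. Of the shorter-exon counts read there, 903 had the longer and 1307 the shorter exon. Gtpbp6, a GTP-binding protein gene, had 240 of 255 longer-exon counts in AC (94.1%), 80 of 142 in BC (56.3%) and 131 of 384 in rods (34.1%) for acceptors 86 nt apart (chr5:110106698-110106783, minus). That extension is not in GENCODE M21, and the pair held 855 of the gene's 7667 counts.

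**Figure D4:**
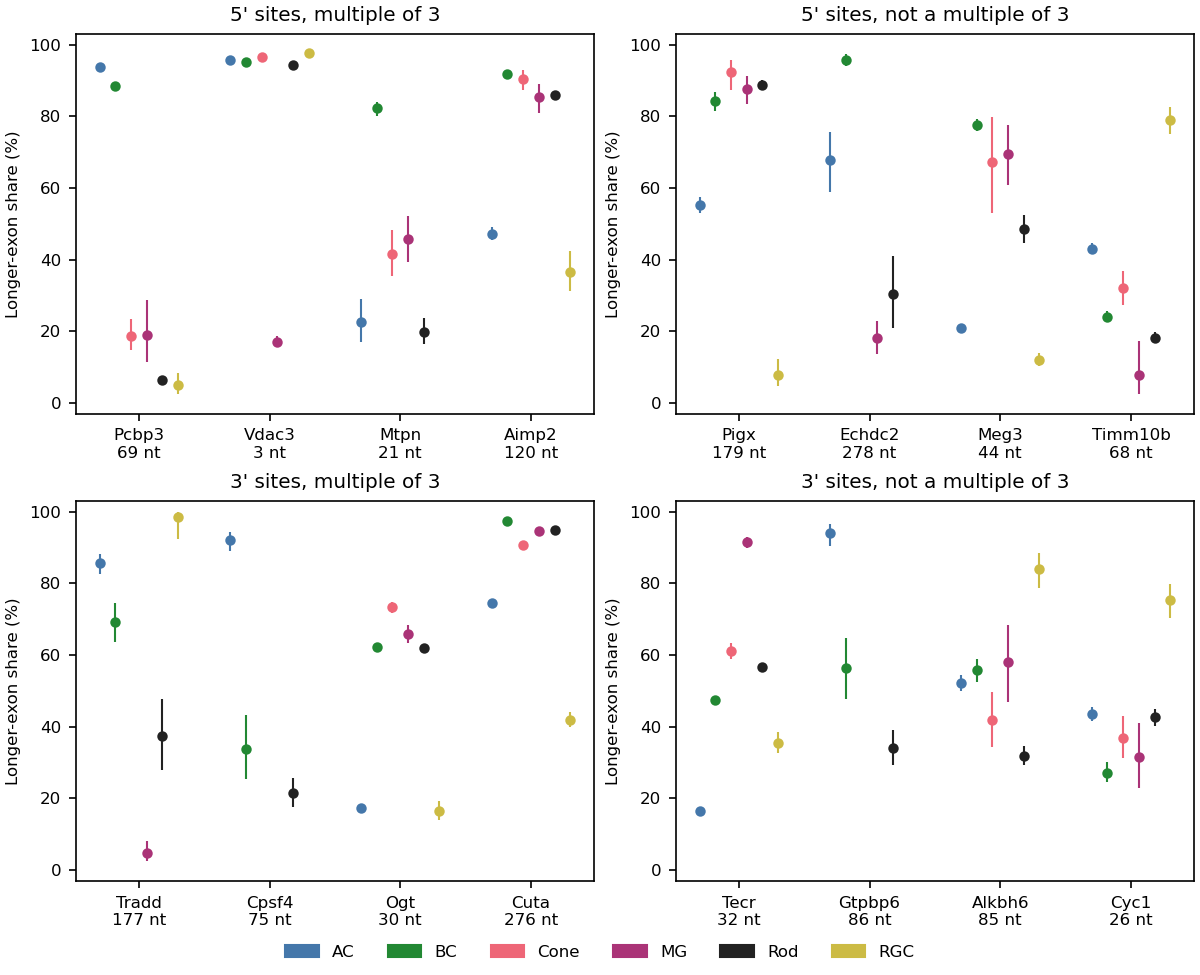
Longer-exon share in percent (y axis) in each class with 50 or more counts (colours) for the 4 extending pairs with the largest class difference in each set of site and frame, with exact 95% intervals for counting error. In Vdac3 the MG point stands at 17.03% below all others, and in Ogt AC and RGC stand at 17.4 and 16.4% below the other 4 classes.

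Several pairs differed little between classes. Of those chosen for their counts, Mgarp and Serf2, described below, were called, and the others ranged by 4.04 points in Fau to 7.01 points in Pdc. Rpl22l1, a ribosomal protein paralog, has coding acceptors 3 nt apart and 255714 counts. The CAG was kept in 36.1% of AC counts (51583 of 142891), 34.2% in BC, 32.2% in rods, 31.2% in RGC and 30.5% in both cones and MG. Rab3a, a GTPase of synaptic vesicles, has donors 5 nt apart in its 5′ UTR (chr8:70754864-70754868, plus) with shares from 28.9% in MG (252 of 872) to 33.2% in RGC (3998 of 12055). Ndufb2, a subunit of respiratory complex I, has donors 4 nt apart in the 3′ UTR (chr6:39598362-39598365, plus). Its longer-exon share was 21.4% in AC, BC and rods, 21.3% in RGC, 20.3% in MG and 17.5% in cones. These were among the 4 pairs with the smallest ranges of those with 200 counts in every class and a less used intron of at least 20%, which chose them, so their evenness is a description.

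Other abundant pairs also varied little. Fau, a ubiquitin-like protein fused to a ribosomal protein, had 672891 counts and longer-exon shares of 86.4% in RGC to 90.5% in cones for 5′ UTR acceptors 3 nt apart (chr19:6058243-6058245, plus). Elob, elongin B, kept its 30-nt coding segment in 79.5% of AC counts to 85.8% of rod counts, and Smdt1, a regulator of the mitochondrial calcium uniporter, had 81.9% in AC to 88.1% in cones and MG for coding donors 49 nt apart (chr15:82346221-82346269, plus). Pdc, phosducin, a photoreceptor protein that binds transducin subunits, had the most counts of all 5′ pairs named, 1184931, and shares from 29.7% in BC to 36.7% in cones for 5′ UTR donors 12 nt apart (chr1:150319489-150319500, plus). Gnb1, a transducin beta subunit, had 13.5% in BC to 18.2% in AC for acceptors 3 nt apart in the 3′ UTR (chr4:155557468-155557470, plus).

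For the 4-nt donors Rps28 (chr17:33823193-33823196, minus), Rbm3 (chrX:8143247-8143250, minus) and Sumo3 (chr10:77609941-77609944, plus) the ranges were 42.3 to 49.7%, 22.3 to 32.9% and 6.19 to 14.9%. Not every abundant pair was even. Serf2 kept its 23-nt segment in 15598 of 53586 AC counts (29.1%), 7922 of 43155 in BC (18.4%), 578 of 4471 in RGC (12.9%), 842 of 15181 in cones (5.55%), 5032 of 99123 in rods (5.08%) and 270 of 15036 in MG (1.80%). Mgarp, a mitochondrial protein gene, has coding donors 199 nt apart (chr3:51396228-51396426, minus). Its shares were 39.5% in RGC (2830 of 7169), 33.9% in AC, 18.1% in rods, 16.1% in BC, 13.03% in cones and 8.17% in MG (5319 of 65066). In both genes AC were high and MG lowest.

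Gene lists were read against the 21.7% called among all pairs. Of 40 phototransduction and outer segment genes, 13 had a pair, and 1 of 23 measurable pairs was called (4.35%, median range 5.59 points). That pair was in Gnat2, the alpha subunit of cone transducin, with 5′ UTR donors 20 nt apart (chr3:108093074-108093093, plus). Its longer exon had 7389 of 9764 counts in cones (75.7%), 38 of 55 in AC (69.1%), 1052 of 1628 in rods (64.6%) and 866 of 2398 in BC (36.1%). The gene's level was 1605 CPM in cones, 85.9 in BC and 36.0 in rods. Cngb1, the beta subunit of the rod cyclic nucleotide-gated channel, kept its CAG in 23214 of 64740 rod counts (35.9%), 164 of 421 in cones (39.0%), 241 of 563 in MG (42.8%), 2157 of 4662 in BC (46.3%) and 145 of 482 in AC (30.1%). Both are photoreceptor genes, and the source of their counts in other columns was not tested.

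RNA-binding and splicing genes had pairs in 47 of 86 genes listed, and 21 of 74 measurable pairs were called (28.4%, median range 13.02 points). Of their 96 pairs, 64 kept the frame. Hnrnpc, a nuclear protein that packages pre-mRNA, kept its 24-nt segment in 66 of 79 RGC counts (83.5%), 1254 of 2037 in AC (61.6%), 903 of 1663 in BC (54.3%), 145 of 303 in cones (47.9%), 88 of 201 in MG (43.8%) and 774 of 2165 in rods (35.8%). Pcbp4 kept a 197-nt coding segment (chr9:106463131-106463327, plus) in 135 of 152 counts in RGC (88.8%), 17033 of 19857 in rods (85.8%), 299 of 377 in MG (79.3%), 1475 of 1968 in cones (74.9%), 1548 of 2577 in AC (60.1%) and 1673 of 3780 in BC (44.3%). Among the others called were the SR proteins Srsf5, with 5′ UTR donors 126 nt apart and 70.2% in AC against 32.0% in rods, and Srsf7, with coding donors 9 nt apart and 80.8% in RGC against 54.1% in rods. Coding donors of Hnrnpa3, 66 nt apart, had 79.0% in AC against 44.8% in MG, and acceptors of Msi2, 54 nt apart, 56.4% in AC against 26.7% in RGC. These last 4 were picked from the called pairs after their values were seen. Srsf7 had another called pair, coding donors 24 nt apart on the adjoining segment. There RGC were lowest with 48 of 106 counts (45.3%), against 108 of 125 in MG (86.4%).

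Ribosomal protein and translation factor genes were called in 5 of 50 measurable pairs (10.0%, median range 7.44 points). Rpl21, a protein of the large ribosomal subunit, has 5′ UTR donors 174 nt apart (chr5:146833567-146833740, plus). Its longer exon had 199 of 202 RGC counts (98.5%), 1670 of 2369 in AC (70.5%), 61 of 110 in cones (55.5%), 414 of 866 in rods (47.8%) and 151 of 347 in BC (43.5%). Rps14, of the small subunit, has 5′ UTR donors 95 nt apart. It had 85 of 117 in RGC (72.6%), 614 of 1102 in AC (55.7%), 69 of 182 in MG (37.9%), 80 of 233 in cones (34.3%), 153 of 621 in rods (24.6%) and 187 of 1499 in BC (12.5%). Rpl21 had 7 of 30 in MG. RGC were highest and BC lowest in both among classes with 50 counts.

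Respiratory chain genes were called in 7 of 35 pairs (20.0%, median range 8.33 points) at 50 counts and in 2 of 34 (5.88%) at 200 counts, where 12.1% of all pairs were. Cox6b2, a subunit of cytochrome c oxidase, kept its 43-nt segment in 122 of 131 counts in cones (93.1%), 1235 of 1634 in MG (75.6%), 610 of 813 in rods (75.03%), 537 of 763 in BC (70.4%), 2394 of 3596 in AC (66.6%) and 401 of 654 in RGC (61.3%). Ndufaf1, an assembly factor of complex I, has donors 187 nt apart (chr2:119662593-119662779, minus), with 41 of 63 counts in RGC (65.1%) and 24.2% in rods to 35.3% in BC among the other classes.

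Channels, receptors and transporters were called in 20 of 78 pairs (25.6%, median range 14.6 points). Slc29a2, a nucleoside transporter, kept its 9-nt segment in 76 of 84 BC counts (90.5%), 24 of 55 in cones (43.6%) and 258 of 724 in rods (35.6%). Slc37a4, the glucose 6-phosphate transporter, kept a 31-nt segment out of frame (chr9:44399218-44399248, plus) in 188 of 389 AC counts (48.3%), 46 of 208 in BC (22.1%), 80 of 673 in rods (11.9%), 10 of 114 in cones (8.77%) and 2 of 79 in MG (2.53%).

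Synaptic and vesicle cycle genes had few measurable pairs, of which 4 of 10 were called (40.0%) at 50 counts and 0 of 6 at 100 counts, where 15.1% of all pairs were. Cacna2d4, an auxiliary subunit of the photoreceptor calcium channel, has acceptors 14 nt apart that are not in GENCODE M21 (chr6:119267793-119267806, plus). The isoforms of this pair also differed elsewhere. The longer exon had 75 of 84 counts in cones (89.3%), 541 of 735 in rods (73.6%) and 675 of 1083 in BC (62.3%), and of the gene's 400 AC counts 99% were on isoforms without a model, against 0 in these 3 classes. Unc13a, which primes synaptic vesicles, has donors 15 nt apart (chr8:71662840-71662854, minus) with 64 of 251 counts in rods (25.5%), 14 of 73 in BC (19.2%) and 0 of 62 in AC, which allows a share of up to 4.84%.

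Genes known for such sites in the literature were read last, 17 in all, of which 8 had a pair and 8 of 17 measurable pairs were called (47.1%). At 100 counts 2 of 11 were called (18.2%, against 15.1% of all pairs), and at 200 counts 1 of 8 (12.5%, against 12.1%). A called pair need not be the site known from the literature. Those of Gnas, Atp2b1 and U2af1l4 were pairs of separate exons. The genes had been listed for being regulated, so this is no independent support. Nptn, neuroplastin, a cell adhesion protein of synapses and partner of calcium pumps, had the largest difference of any named pair. Its 12-nt segment was kept in 555 of 563 counts in MG (98.6%, 97.2 to 99.4%), 231 of 264 in rods (87.5%), 191 of 253 in BC (75.5%), 499 of 1026 in AC (48.6%) and 0 of 176 in RGC, which allows a share of up to 1.70% (3 counts of the total). Cones had 29 of 34. The sites were measured on 1 isoform each, and the MG and RGC columns differed most.

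Ing4, a reader of methylated histone H3, has donors and acceptors that differ by a few codons. Its 9-nt donor segment was counted separately with each of 2 acceptors 3 nt apart. With the downstream acceptor it was kept in 172 of 242 counts in MG (71.1%), 2610 of 3704 in rods (70.5%), 1079 of 1555 in AC (69.4%), 239 of 360 in cones (66.4%), 1063 of 1756 in BC (60.5%) and 34 of 94 in RGC (36.2%). RGC were below the other 5 classes. With the upstream acceptor, on fewer counts, the order differed: it was kept in 121 of 139 counts in BC (87.1%), 58 of 70 in cones (82.9%), 94 of 114 in AC (82.5%) and 193 of 359 in rods (53.8%), with 20 counts in MG and 0 in RGC. Both differences were called. With the upstream acceptor the isoforms also differed at acceptors 109 nt apart. All 477 counts with the 9-nt segment had the longer exon there, and all 225 without it the shorter. The donor and that acceptor are therefore not separated in this set. Acceptors 109 nt apart in the same gene were used with the longer exon in 77.1% of rod counts to 93.9% of MG counts. Stat3, a transcription factor of cytokine signalling, has coding acceptors 50 nt apart, and the longer exon had 146 of 153 counts in rods (95.4%), 54 of 55 in BC (98.2%) and 0 of 13 in RGC. Both Bcl2l1 pairs lay in the 5′ UTR of this regulator of apoptosis. Of these, donors 155 nt apart (chr2:152830386-152830540, minus) had 64 of 66 counts in BC (97.0%) and 216 of 317 in AC (68.1%). Baiap2, a scaffold of the actin cytoskeleton, had acceptors 120 nt apart with shares of 88.8% in AC to 51 of 51 in cones. U2af1l4, a U2AF-related splicing factor, had 8 extending pairs with 50 counts in at least 1 class on 334 counts in all. Isoforms without a model held 51.3% of its 117 AC counts and 0 of its 167 rod counts. Of the extending pairs, 1 could be compared between classes, donors 12 nt apart with 144 of 145 counts in rods (99.3%) and 49 of 56 in AC (87.5%). Both of its pairs of separate exons that could be compared were called. Acceptors 273 nt apart (chr7:30563930-30564202, plus) had 136 of 151 counts in rods (90.1%) and 25 of 57 in AC (43.9%), and donors 170 nt apart (chr7:30564132-30564301) had 89 of 124 in rods (71.8%) and 56 of 56 in AC.

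Long reads also show which of 2 alternative sites occur on the same isoform. In 169 genes, 240 combinations of 2 extending pairs could be read on the same isoforms. All 4 combinations of longer and shorter exons were listed for 125, 3 for 102 and 2 for 13. The longer-exon share at the second site differed between isoforms with the longer and the shorter exon at the first by a median of 21.02 points, by under 10 points in 78 and by 50 or more in 49. Cuedc2, with acceptors 54 and 3 nt apart, showed nearly equal shares: the second was 68.1% on isoforms with the first longer exon and 65.9% on the others, over 67380 counts. Rbm3 gave 39.6 and 38.1% over 48835 counts, and Serbp1, an mRNA-binding protein gene with acceptors 18 and 45 nt apart, 50.7 and 49.9% over 40160 counts. In Rpl13a, a ribosomal protein gene, with acceptors 5 nt and donors 158 nt apart, isoforms with the first longer exon had 62452 counts with the second longer exon and 6788 without it. On the others the second share was 25.6%, over 79149 counts in all. In Cnbp, a zinc finger nucleic acid-binding protein gene, all 16187 counts with the longer exon at the 3-nt acceptors also had the longer exon at the 21-nt donors, against 59.1% of the others. These 5 had the most counts and were chosen after the values were seen. An isoform left out of the deposited set gives a combination at 0, and how far that sets these differences was not tested.

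**Figure D5:**
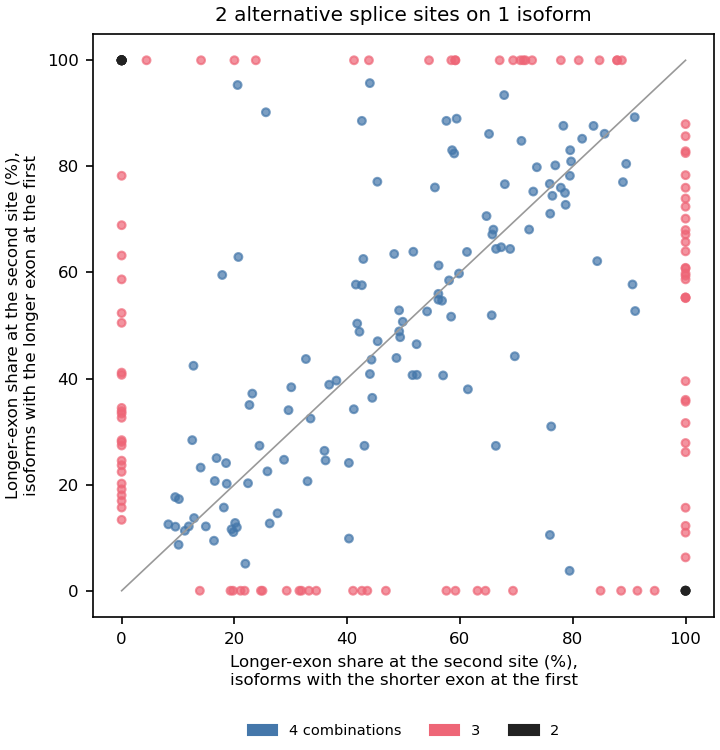
Longer-exon share at the second of 2 alternative sites in percent, on isoforms with the longer exon at the first site (y axis) against isoforms with the shorter exon there (x axis), for 240 combinations coloured by how many of the 4 isoform combinations were listed. Points on the grey diagonal show equal shares, and the points with 3 or 2 combinations lie on the borders of the plot because a missing combination gives 0 or 100%.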

How the data were processed

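The authors deposited whole-number counts per isoform in 6 cell class columns and transcript models whose source column names FLAIR, which assembles isoforms out of long reads, per the file contents. The build mm10 is given per the submitters' processing notes. Whether counts are reads or molecules, how cells were typed and doublets treated, and whether splice sites were corrected to an annotation are not given in the sources used here. Of 122601 distinct splice junctions, 115691 (94.4%) were in GENCODE M21 (GRCm38) at the same coordinates, a share that was lower for the introns of pairs, as given with the counts of pairs.

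Introns were taken from the models and paired by gene and strand where they shared one end and differed by 3 to 300 nt at the other. Counts of isoforms with each intron were summed per class, and a share was given with 50 or more counts. Intervals are exact Clopper-Pearson at 95%, and a count of 0 is given the limit of 3 counts. Neither covers more than counting error, and reads may repeat a molecule. Position (coding, UTR) and sequence came from M21 transcripts. A difference was called at 25 percentage points, a rule of size, because columns carry no library and no test was possible. Pairs, gene lists and rules were chosen with earlier results of these data known. Named pairs were extending pairs, at most 1 per gene in a set. They were the 4 with the largest class difference at 200 counts in each set of site and frame, the 4 with the most counts per site, the 4 3-nt acceptors and the 4 4-nt donors with the most counts, the 4 with the smallest range, 2 per gene list, and the pairs of genes known for such sites. The rules were tested on simulated counts that held counting error only, so this could not test other variation between columns. The planned scoring of splice sites was not run because intron sequence was not used here. Python 3.11.15, numpy 2.4.6, pandas 2.3.3, SciPy 1.17.1 and Matplotlib 3.10.9 were used, and 0 class columns were left unused. One gene that the naming rule selected is not reported here.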

Additional observations from a re-analysis of the deposited data

How the results depend on the processing

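No paired analysis was possible because no class column names its library, and no library could be left out for the same reason. The 2 alternatives of the splice site score were not run. Main results were recomputed in 47 cases, of which 26 changed by less than counting error or 1.5-fold and 21 moved. The rule found 3363 pairs at 3 to 100 nt and 1691 in annotated isoforms only. The share of multiples of 3 was then 35.5 and 36.3% for 5′ pairs and 52.1 and 53.7% for 3′ pairs, and for 3′ pairs it was 50.3% in extending pairs and 48.2% with a less used intron of 5% or more. Called pairs numbered 1677 at 20 counts, 540 at 100, 341 at 200, 2552 at 10 points, 187 at 50 points, 392 of 2176 with columns thinned to the smallest, 310 of 1375 in annotated isoforms and 599 of 2939 in isoforms otherwise alike. In extending pairs the median share of the less used intron was 16.2% for 5′ pairs out of frame and 21.1% for 3′ pairs in frame. Over all pairs, 3-nt acceptors were 18.8% and 4-nt donors 3.14%. RGC stood farthest in 41.6% at 200 counts. Of 55 named differences, all 55 stayed within counting error when thinned. The thinned counts were averaged over 20 draws, which returns nearly the starting share, so this could not show a dependence on depth. Within counting error also lay 48 of 49 with isoforms of 100 or more counts, 21 of 25 in annotated isoforms and 36 of 51 in isoforms otherwise alike. In the last of these, 14 moved and Pcbp3 reversed to −10.4 points, on at most 13 RGC counts. The alternatives of isoforms otherwise alike, of exons that hold both sites, of list minimums and of the tandem distances were chosen after seeing the data. The cause of the moves was not tested, except that thinning, stricter minimums and annotated isoforms leave fewer counts or pairs.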
